A study of Mus musculus with 4 samples.

Results

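The inflammatory chemokines described here are 10 genes, Cxcl9, Cxcl10, Cxcl1, Ccl2, Ccl7, Ccl8, Ccl6, Ccl9, Ccl4 and Ccl5, out of the 32287 features counted. They were chosen by name, without a threshold on any value, but with earlier results of these data known. Their levels were measured by spatial transcriptomics in popliteal lymph nodes (PLNs), the nodes behind the knee that drain the hind paw and ankle, of mice with TNF-driven arthritis and of wild-type (WT) mice. Sections were placed on Visium capture areas, where barcoded spots in a grid bind poly-adenylated RNA and unique molecular identifiers (UMIs) let each bound molecule be counted a single time.

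All mice were C57BL/6 males. The WT area held 10 PLNs of 5 mice aged 5.5 months. The Early area held 6 PLNs of 3 TNF-Tg mice, also aged 5.5 months. The Advanced group comprised 2 areas from separate tissue blocks, Advanced 1 and Advanced 2, each with 6 PLNs of 3 TNF-Tg mice aged 8.5 to 9 months. TNF-Tg mice carry a TNF transgene and develop arthritis, and Early and Advanced name the stage of joint disease at those ages. Age and stage therefore cannot be told apart between Advanced and the other groups. Evan's blue dye had been given into the hind paw of the mice to find the nodes. The nodes of several mice were pooled on each area, so WT and Early were each 1 sample and Advanced was 2. The p-values below refer only to the spread between these areas, which the fits took partly or wholly from all genes together.

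Chemokines are small secreted proteins that guide leukocytes through G-protein-coupled receptors on the cell surface. The inflammatory members are induced in macrophages, stromal cells and lymphocytes by cytokines such as TNF and interferon-gamma, in part through the transcription factor NF-kB, whereas homeostatic members such as Cxcl13 and Ccl21a keep the B cell and T cell zones of a lymph node in place. Ccl2, Ccl7 and Ccl8 belong to the monocyte chemoattractant proteins, Ccl6 and Ccl9 to the ligands of Ccr1, Ccl4 and Ccl5 to the attractants of T cells and monocytes, Cxcl9 and Cxcl10 to the interferon-inducible ligands of Cxcr3, and Cxcl1 to the neutrophil attractants that act on Cxcr2.

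The 10 genes lie in clusters on mouse chromosomes 5 and 11 (GRCm38, GENCODE M21 positions). Cxcl1 (ENSMUSG00000029380) spans 90891241 to 90893115, Cxcl9 (ENSMUSG00000029417) 92321347 to 92328079 and Cxcl10 (ENSMUSG00000034855) 92346638 to 92348889 of chromosome 5. On chromosome 11, Ccl2 (ENSMUSG00000035385) spans 82035571 to 82037453, Ccl7 (ENSMUSG00000035373) 82045712 to 82047525 and Ccl8 (ENSMUSG00000009185) 82115185 to 82116799. Further along chromosome 11 are Ccl5 (ENSMUSG00000035042) at 83525778 to 83530518, Ccl9 (ENSMUSG00000019122) at 83572919 to 83578636, Ccl6 (ENSMUSG00000018927) at 83587882 to 83593087 and Ccl4 (ENSMUSG00000018930) at 83662584 to 83664683. Ccl6 and Ccl9 are neighbours, 9245 bases apart, and so are Ccl2 and Ccl7, 8258 bases apart. The longest stretch that the annotated transcripts of 2 members share was 25 bases, between Ccl6 and Ccl9. Cxcl10 overlaps Art3 on the other strand, which had 83 UMIs on the 4 areas together against 899 for Cxcl10, and the antisense partners of Ccl2 and Ccl6 had 0 and 3 UMIs.

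Upstream sequences of 6 members, Cxcl9, Cxcl10, Cxcl1, Ccl6, Ccl8 and Ccl9, were present in the RefSeq promoter table (GRCm38.p6), and those of Ccl2, Ccl4, Ccl5 and Ccl7 were not analysed here. The 250 bases before each start were searched on both strands for the interferon-stimulated response element (GAAANNGAAA), the gamma-activated site (TTCNNNGAA) and the NF-kB consensus. Across the 32851 promoters of the table, 2.98%, 7.02% and 7.25% held the respective motif. Cxcl10 had 1 interferon-stimulated response element and 2 separate NF-kB stretches, Cxcl1 had 1 NF-kB stretch 70 bases before its start, Ccl9 had 1, and Cxcl9, Ccl6 and Ccl8 had no match of any of the motifs. The Cxcl10 and Cxcl1 sequences are shown because they hold these matches, in capitals, at chr5:92348890-92349139 on the minus strand and chr5:90890995-90891244 on the plus strand.
Cxcl10: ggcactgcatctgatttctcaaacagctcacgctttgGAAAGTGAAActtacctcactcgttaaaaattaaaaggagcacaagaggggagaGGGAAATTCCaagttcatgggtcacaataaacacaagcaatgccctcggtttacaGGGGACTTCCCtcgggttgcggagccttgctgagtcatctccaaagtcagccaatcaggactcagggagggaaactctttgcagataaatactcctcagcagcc
Cxcl1: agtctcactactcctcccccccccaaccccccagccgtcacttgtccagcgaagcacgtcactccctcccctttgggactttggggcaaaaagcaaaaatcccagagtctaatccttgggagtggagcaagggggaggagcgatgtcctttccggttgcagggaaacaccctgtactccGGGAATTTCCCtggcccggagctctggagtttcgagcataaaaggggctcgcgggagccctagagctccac
A match describes letters only and was not tested as a binding site.

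Ccl6 and Ccl9 are shown because they are neighbours whose UMIs on the WT area gathered in the same few spots, described further on. The last 100 bases before their starts, at chr11:83593088-83593187 and chr11:83578637-83578736, both on the minus strand, are given with shared runs of at least 8 bases in capitals.
Ccl6: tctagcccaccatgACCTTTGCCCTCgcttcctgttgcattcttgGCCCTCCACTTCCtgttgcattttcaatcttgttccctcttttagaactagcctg
Ccl9: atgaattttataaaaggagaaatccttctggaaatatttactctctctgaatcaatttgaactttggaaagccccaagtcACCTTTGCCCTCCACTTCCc
The longest run shared by the 250-base windows of Ccl6 and Ccl9 was 13 bases, and 50% of the positions of their alignment were identical, against 46.6% to 51.5% for all pairs of the 6 windows.

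The areas held 1808678 (WT), 5180493 (Early), 3378219 (Advanced 1) and 3198238 (Advanced 2) UMIs in 833, 1489, 2015 and 1782 spots under tissue. Several cells, of one type or more, can lie over 1 spot. All areas use the same grid of barcodes, and 249 grid positions were under tissue on all 4. Levels are given as UMIs of a gene per 10000 UMIs of all genes, with exact Poisson 95% intervals that cover counting error only. A spot was called rim when at least 1 of its 6 grid neighbours was not under tissue and interior when all 6 were. Rim spots were deep, with medians of 2113 to 5541 UMIs, and interior spots shallow, with medians of 140.5 to 250.5, and the rim held 47.9% (Advanced 1) to 79.3% (WT) of an area's UMIs. As a loose check of the labelled tissue, none of the 6 B cell or 6 T cell markers was at 0 on any area, with summed levels of 19.4 to 34.4 and 2.99 to 5.87 per 10000. Listed markers of fat and mast cells were not at 0 on any area either, so the check does not identify the tissue. In sums over spots, fewer cells of a type and less RNA per cell cannot be told apart.

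All 10 chemokines were detected on every area and in both regions, and all passed the minimum of 30 UMIs for testing. Their summed level was 38.3 per 10000 for WT, 21 for Early, 11.7 for Advanced 1 and 19.9 for Advanced 2. Ccl8 made up 66.7%, 59.8%, 47.9% and 50.2% of these sums and Ccl5 12.7%, 13.7%, 28.0% and 27.7%, so the sum mostly followed Ccl8. Without Ccl8 the sums were 12.8, 8.43, 6.10 and 9.90. Ccl4, with 72 UMIs over the 4 areas, was the sparsest member and Ccl8, with 16195, the most abundant in UMIs, counts that also depend on transcript capture and are not compared between genes.

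**Figure D1:**
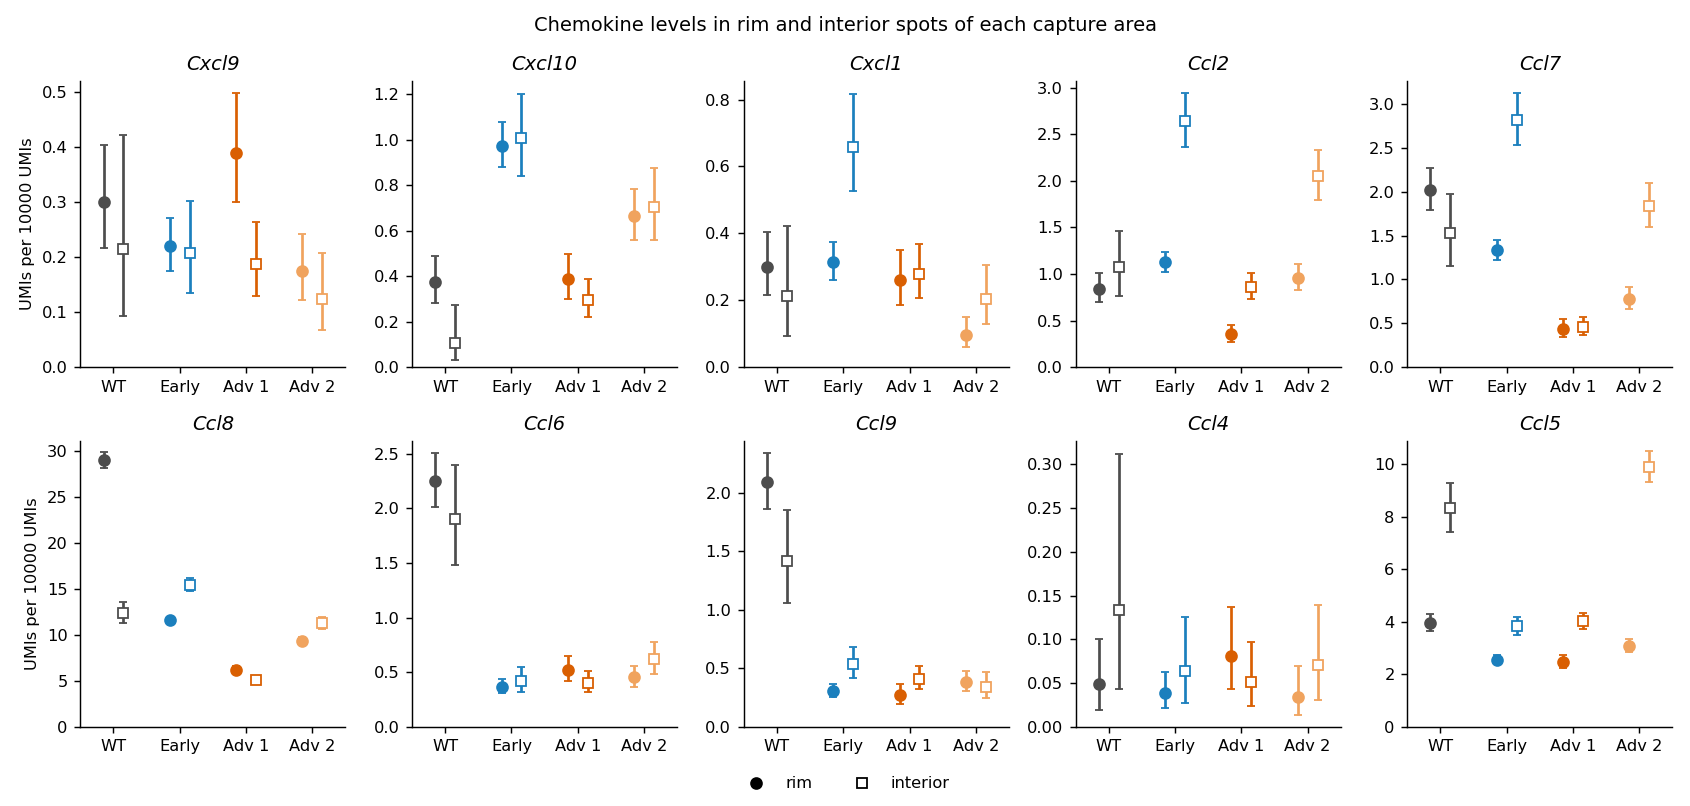
UMIs per 10000 UMIs of each chemokine (vertical axes from 0, scaled per gene) in rim spots (filled circles) and interior spots (open squares) of the WT, Early, Advanced 1 (Adv 1) and Advanced 2 (Adv 2) areas, with exact Poisson 95% intervals. The WT rim stands highest for Ccl8 (29.0), Ccl6 (2.25) and Ccl9 (2.09), and the Early interior for Ccl2 (2.64), Ccl7 (2.81) and Cxcl1 (0.660).

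On the WT area, several of the chemokines were concentrated in a single small patch, which bears on every comparison with WT below. The 5 WT spots with most Ccl6 UMIs touched one another, 4 of them rim spots, and held 205124 UMIs, 11.3% of the area. They held 256 of the 394 WT Ccl6 UMIs (65.0%) and 212 of the 353 Ccl9 UMIs (60.1%), and the same 5 spots led for Ccl9. These spots also held 57.1% of Ccl7, 47.8% of Ccl2, 45.1% of Cxcl1, 41.4% of Cxcl10, 25.9% of Ccl8 and 23.5% of Cxcl9, but 8.33% of Ccl4 and 4.77% of Ccl5. For 8 of the 10 chemokines this was more than the 11.3% of all UMIs. The share of all genes for which this held was not worked out. Cxcl9 rested on 12 UMIs there, at 0.585 per 10000 (0.302 to 1.02) against 0.260 in the other WT rim spots, too few to call the patch rich in it. Ccl5 was lower in the patch (2.05 per 10000, interval 1.48 to 2.77) than in the other WT rim spots (4.20).

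Within the patch, Ccl6 stood at 12.5 per 10000 (11 to 14.1) against 0.828 in the other WT rim spots, Ccl9 at 10.3 (8.99 to 11.8) against 0.946, and Ccl7 at 9.65 (8.35 to 11.1) against 0.978. The spots were chosen for most Ccl6, so the direction of its difference was fixed by that choice, which its interval does not allow for. Macrophage genes were high there as well. The 10 macrophage markers summed to 123 per 10000 against 56.8 in the other WT rim spots, Marco, a scavenger receptor of sinus macrophages and sinus-lining cells, stood at 71.2 against 27.9, and Cd5l, a macrophage-secreted protein, at 14.3 against 2.84, while Cd163 had 0 UMIs, which allows up to 0.180. The summed B cell and T cell markers were lower, at 5.17 against 20.9 and 2.00 against 5.83. What set these spots apart was not tested, and since nodes were pooled it is not known how many nodes or mice they came from.

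No patch of this kind stood out for Ccl6 and Ccl9 elsewhere. The 5 spots richest in each gene held 14.7% to 18.1% of Ccl6 and 15.4% to 18.6% of Ccl9 on the other 3 areas. As many WT Ccl6 UMIs lay in 3 spots as in all others together, or more, whereas on the other areas 26 to 32 spots were needed to reach that point. Ccl5 was spread alike on all areas, with 8.70% to 9.91% in its 5 top spots. Cxcl10 was concentrated on the Early area too, where 5 spots held 206 of its 509 UMIs (40.5%) and 1 spot held 80.

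**Figure D2:**
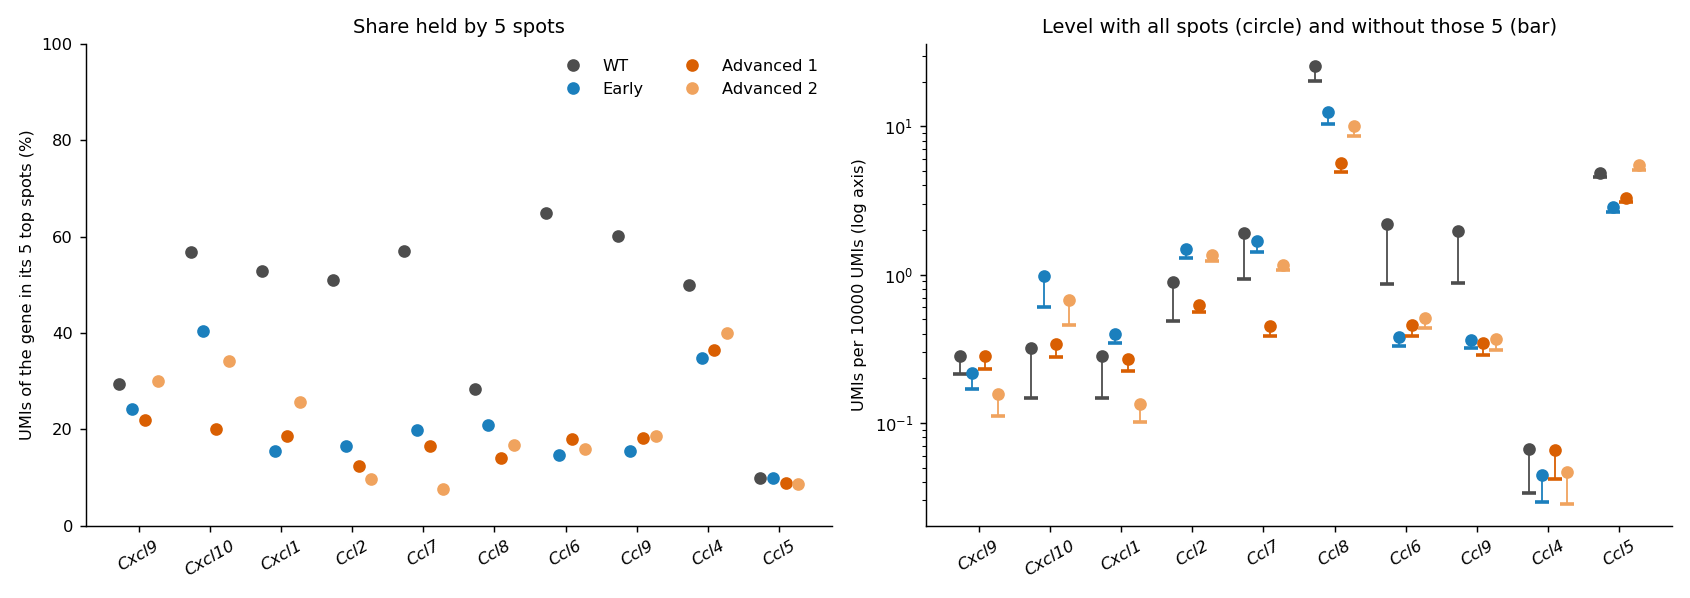
Left, percent of each chemokine's UMIs held by the 5 spots richest in it, per capture area (points). Right, UMIs per 10000 UMIs on a log axis with all spots (circles) and without those 5 spots (bars). WT stands apart for Ccl6 (65.0%), Ccl9 (60.1%), Ccl7 (57.1%), Cxcl1 (52.9%) and Ccl2 (50.9%), and Ccl5 stays between 8.70% and 9.91% on all 4 areas.

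The first comparison was of interior with rim spots, within areas. Touching nodes form 1 stretch of tissue, so the rim is the border of the tissue on the area and not of each node, and interior spots had far fewer UMIs each. Of the 12933 genes tested, 3.18% were called higher in the interior by edgeR (quasi-likelihood test, adjusted p under 0.05) and 3.88% lower. Among the 10 chemokines Ccl2 and Ccl5 passed, both higher in the interior and on 4 of 4 areas, and none passed as lower. The median log2 difference of the 10 was 0.24 against -0.0017 for all genes. DESeq2, in which 2.15% of the 8169 genes left by its own filter passed as higher, called the same 2. Without a term for area, neither passed (adjusted p = 0.195 for Ccl2 and 0.0788 for Ccl5 in edgeR).

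Ccl2, the main attractant of Ccr2-bearing monocytes, had rim levels of 0.843 (WT), 1.12 (Early), 0.352 (Advanced 1) and 0.959 (Advanced 2) and interior levels of 1.07, 2.64, 0.863 and 2.05 per 10000. The interior was higher on each area, by 2.14 to 2.45 times on the TNF-Tg areas and by 1.27 times on WT, where the interval of the ratio, 0.865 to 1.83, included 1. The fitted log2 difference was 0.97 (SE 0.13, adjusted p = 2.21e-05, edgeR). By distance from the edge, Ccl2 went from 1.12 at the rim through 2.35 and 2.65 to 3.26 at 3 or more steps on the Early area, and from 0.959 to 2.66 on Advanced 2. On WT the innermost value rested on 1 UMI.

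Ccl5, made by activated T cells and NK cells among others, had rim levels of 3.97, 2.56, 2.46 and 3.08 and interior levels of 8.32, 3.82, 4.03 and 9.90 per 10000 on WT, Early, Advanced 1 and Advanced 2. The groups did not line up with the size of this gap, which was widest on Advanced 2 (3.21 times, 2.91 to 3.55) and WT (2.10 times, 1.82 to 2.41) and narrower on Advanced 1 (1.64 times) and Early (1.49 times). The log2 difference was 0.92 (SE 0.14, adjusted p = 7.34e-05, edgeR). Toward the centre Ccl5 reached 14.7 on WT and 13 on Advanced 2 at 3 or more steps from the edge, but 6.34 on Early and 4.05 on Advanced 1. In the same test 3 of 8 cytotoxic T and NK markers were higher in the interior, Klrd1 (log2 difference 0.84), Cd8a (0.73) and Nkg7 (0.65), as were 3 of 6 T cell markers, among them Tcf7 (0.72) and Cd3e (0.64). The cytotoxic list summed to 3.03 to 4.28 per 10000 in the interior and 1.92 to 2.95 at the rim, with at most 2 of its 10 genes at 0 in either region of any area, and its part in the Ccl5 result was not tested.

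For Ccl7 and Ccl8 the direction varied between areas. Ccl7, a monocyte attractant like Ccl2, was higher in the interior on Early (2.81 against 1.33) and Advanced 2 (1.83 against 0.780), near even on Advanced 1 (0.460 against 0.433) and at 1.53 in the interior against 2.02 at the rim on WT, where the interval of the ratio, 0.558 to 1.01, included 1. It missed the threshold (log2 difference 0.54, SE 0.17, adjusted p = 0.0618, edgeR) and passed it without the WT patch (0.64, SE 0.17, adjusted p = 0.0226). Ccl8, which in the mouse acts on Ccr8, was much higher at the rim on WT, 29.0 against 12.4 in the interior, yet higher in the interior on Early (15.4 against 11.6) and Advanced 2 (11.3 against 9.28) and a little higher at the rim on Advanced 1 (6.16 against 5.11). With areas on both sides, its log2 difference was -0.27 (SE 0.16, adjusted p = 0.391, edgeR).

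**Figure D3:**
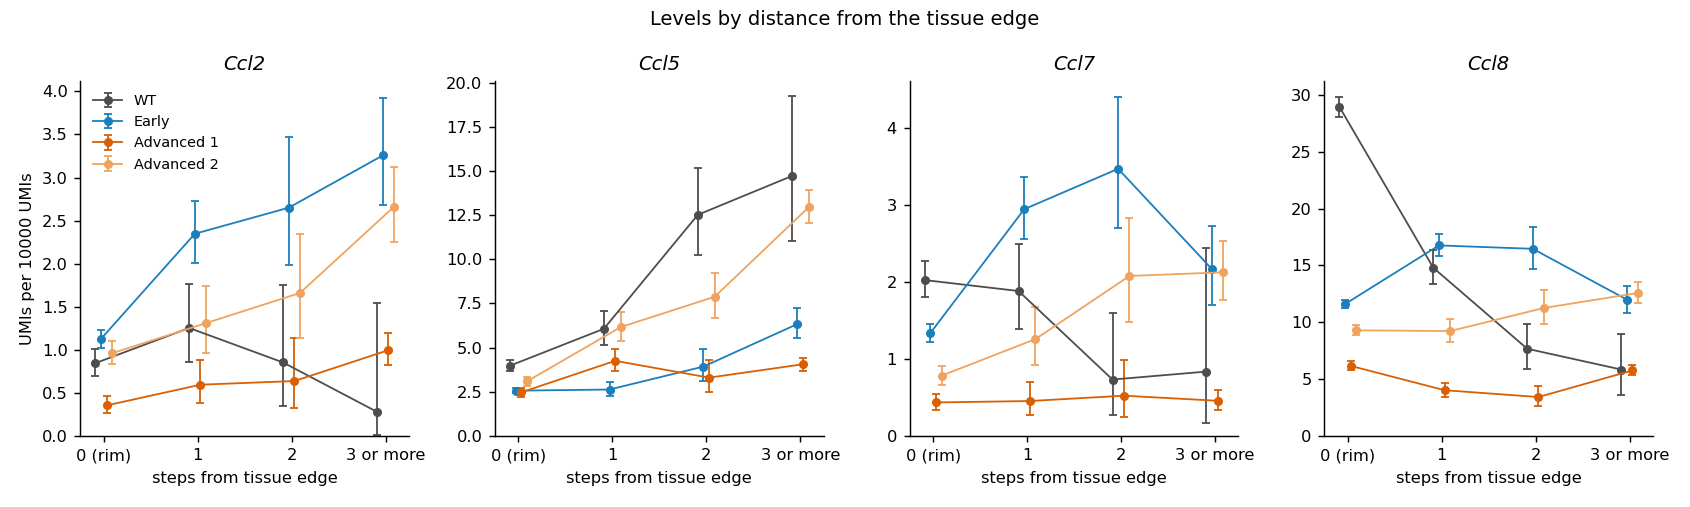
UMIs per 10000 UMIs of Ccl2, Ccl5, Ccl7 and Ccl8 (vertical axes from 0) by steps from the tissue edge (0 is the rim), one line per capture area, with exact Poisson 95% intervals. Ccl8 falls from 29.0 at the WT rim to 5.83 at 3 or more steps, while Ccl5 rises inward from 3.97 to 14.7 on WT and from 3.08 to 13 on Advanced 2. The WT values at 3 or more steps rest on 21 UMIs of Ccl8 and 53 of Ccl5.

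The Cxcr3 ligands showed no called difference between regions. Cxcl9 was higher at the rim on 4 of 4 areas, with rim levels of 0.300, 0.219, 0.389 and 0.174 and interior levels of 0.214, 0.207, 0.187 and 0.123 on WT, Early, Advanced 1 and Advanced 2, from 8 to 33 interior UMIs per area. Its log2 difference was -0.65 (SE 0.22, adjusted p = 0.0725, edgeR). Cxcl10 was even between the regions on Early (0.974 rim, 1.01 interior) and Advanced 2 (0.664 and 0.705), and on WT it stood at 0.376 at the rim against 0.107 in the interior, where only 4 UMIs were counted (log2 difference over the areas -0.24, SE 0.16, adjusted p = 0.456, edgeR).

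Ccl6 and Ccl9, both Ccr1 ligands made by myeloid cells, were split over the areas, with 2 higher in the interior and 2 higher at the rim for each. Their log2 differences were -0.10 (SE 0.14, adjusted p = 0.783) and 0.06 (SE 0.18, adjusted p = 0.907, edgeR). Cxcl1 was higher in the interior on 3 of 4 areas, most clearly on Early (0.660 against 0.314), with a log2 difference of 0.51 (SE 0.21, adjusted p = 0.167, edgeR). For Ccl4, made by activated macrophages and T cells among others, 5 to 9 interior UMIs per area left intervals too wide to separate the regions on any area (log2 difference 0.42, SE 0.43, adjusted p = 0.655, edgeR).

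**Figure D4:**
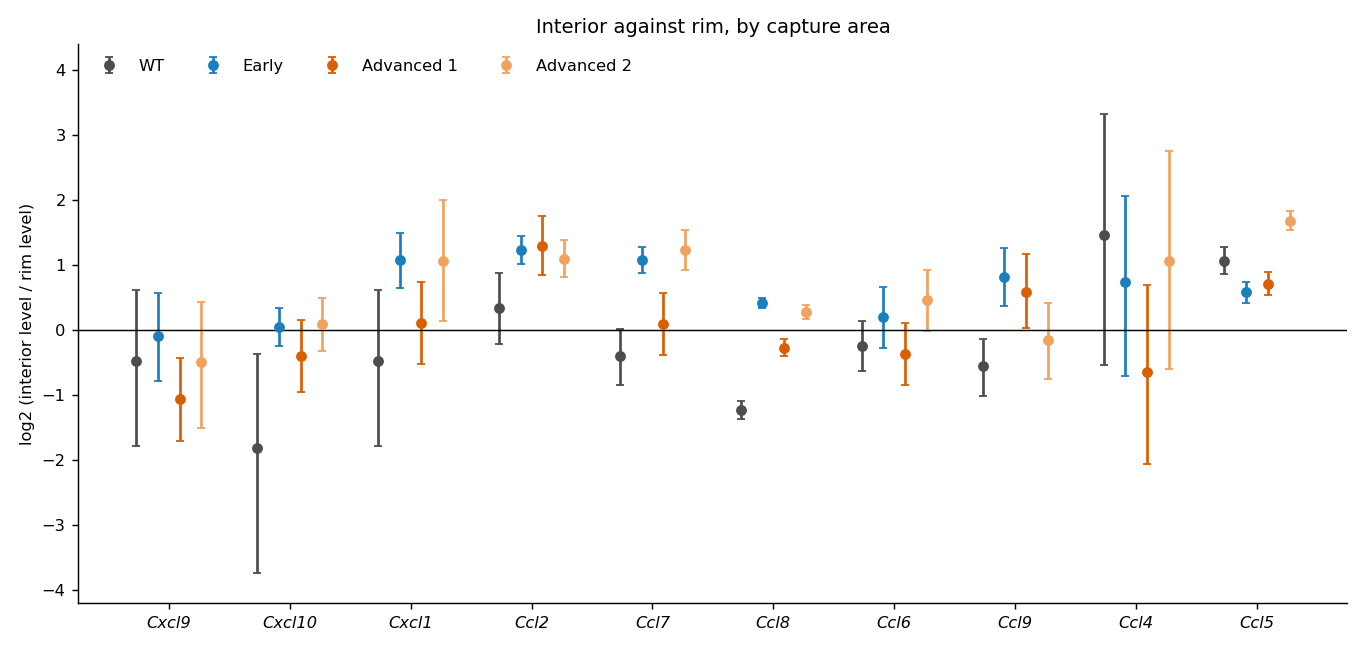
Log2 of the interior level over the rim level of each chemokine on the 4 capture areas (points, coloured by area), with exact 95% intervals for counting error. Ccl2 and Ccl5 lie above 0 on all 4 areas, Cxcl9 below 0 on all 4, and Ccl8 spans from -1.23 on WT to 0.41 on Early.

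The spot maps of Ccl8 and Ccl5 show 2 unlike layouts. High Ccl8 lay along stretches of the outer border on WT and in bands and patches on Early and Advanced 2, with few high spots on Advanced 1, and high Ccl5 lay in compact patches, mostly away from the border, on all 4 areas. Over spots with at least 1000 UMIs, the correlation of Ccl5 with Ccl8 averaged r = 0.01 over the 4 areas, between -0.09 and 0.11.

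**Figure D5:**
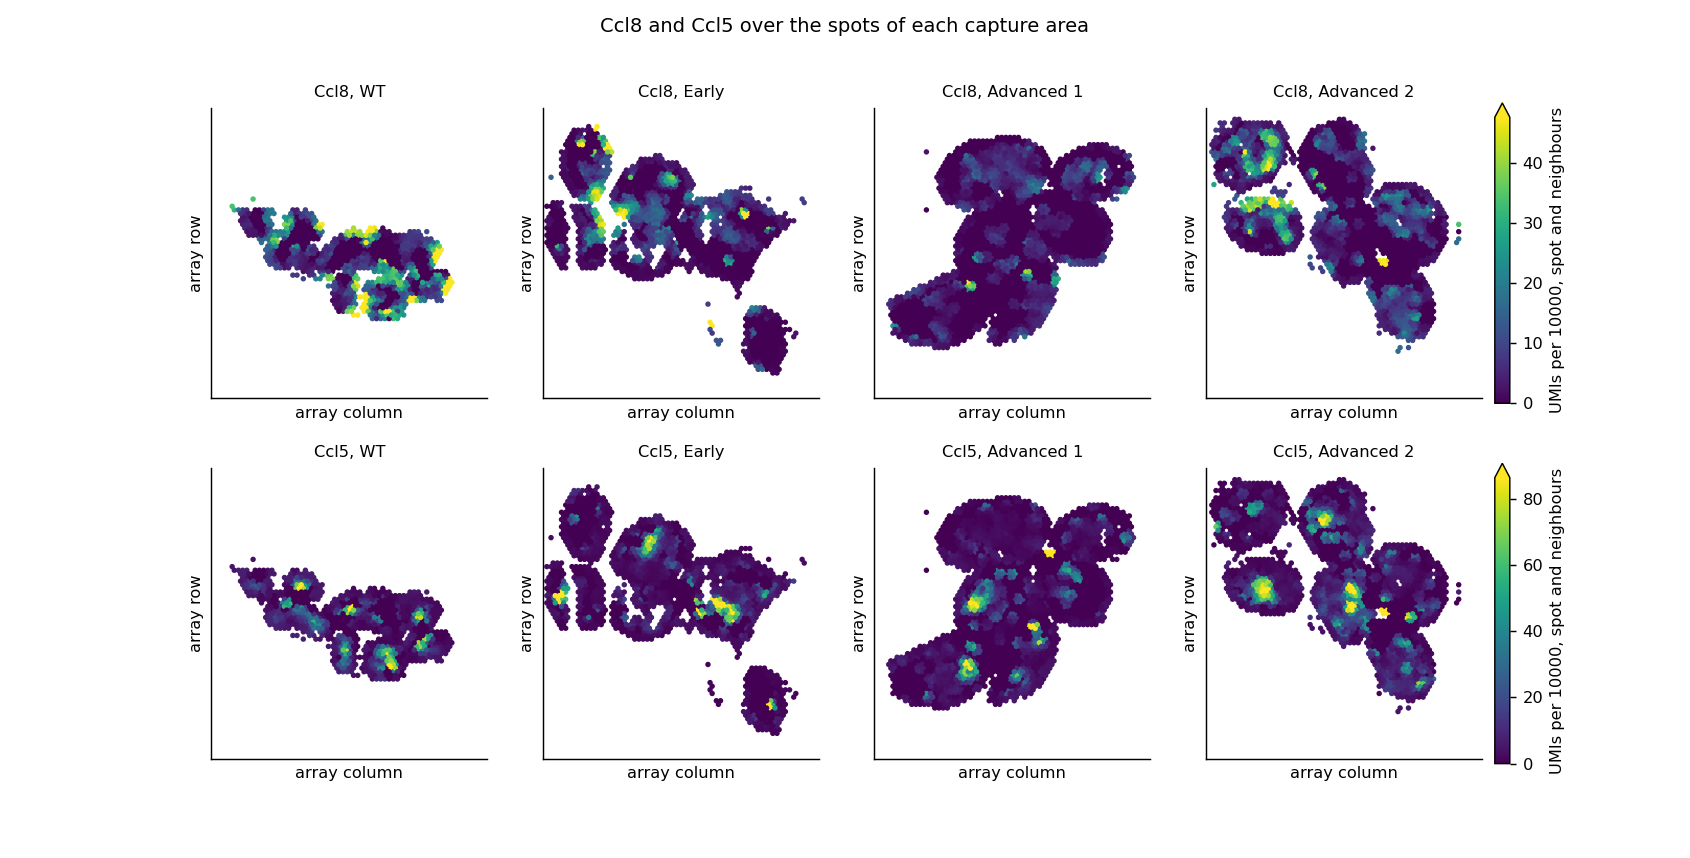
Spots under tissue at their place on the array (columns and rows of the grid), coloured by UMIs per 10000 UMIs of Ccl8 (top) and Ccl5 (bottom), each summed over the spot and its neighbours, with the colour scale ending at the 99th percentile. The highest such value of Ccl8 was 88.2 on WT, 86.2 on Early, 50.5 on Advanced 1 and 59.2 on Advanced 2, and isolated high values can come from shallow spots.

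WT and Early mice were of the same age, so their areas were set side by side first, without a test because each was 1 area. The ratios below carry exact intervals for counting error only. Higher on Early were Cxcl10, 0.983 against 0.321 (3.06 times, 2.33 to 4.09), Ccl2, 1.49 against 0.890 (1.68 times, 1.41 to 2.00), and Cxcl1, 0.398 against 0.282 (1.41 times, 1.03 to 1.96). Higher on WT were Ccl6, 2.18 against 0.380 (5.73 times), Ccl9, 1.95 against 0.363 (5.38 times), Ccl8, 25.5 against 12.5 (2.04 times) and Ccl5, 4.87 against 2.86 (1.70 times). Intervals of Cxcl9, Ccl4 and Ccl7 included 1.

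In the interior the ratios of Early to WT were larger for Cxcl10, Ccl2 and Cxcl1. There, Cxcl10 stood at 1.01 on Early against 0.107 on WT, Cxcl1 at 0.660 against 0.214, Ccl2 at 2.64 against 1.07 and Ccl7 at 2.81 against 1.53. Without the WT patch, the WT levels over all spots were 0.212 for Cxcl10, 0.524 for Ccl2, 0.175 for Cxcl1 and 0.929 for Ccl7, all below Early, while Ccl6 (0.861) and Ccl9 (0.879) were still above it and Ccl8 was at 21.3 and Ccl5 at 5.23. Outside the patch the WT rim still had 24.5 per 10000 of Ccl8, against 11.6 at the Early rim, although 14 spots were enough to hold as many WT Ccl8 UMIs as all the others. Most of the WT excess of Ccl6 and Ccl9 lay in 5 spots.

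The Advanced areas were then compared with Early, the contrast of late with early joint disease. Of the genes tested, 0.534% passed in edgeR as higher in Advanced and 0.642% as lower. Of the 10 chemokines 5 passed as lower, Cxcl10, Ccl2, Ccl7, Ccl8 and Cxcl1, and 0 as higher, with a median log2 difference of -0.39 against 0.01 for all genes. These calls leaned on an assumption: with 1 residual degree of freedom the fit took 1 common spread for all genes, so that a gene's own difference between the 2 Advanced areas had no weight. With a spread that may differ by gene, added after the data were seen (0.557% of genes lower), Cxcl10 and Cxcl1 alone passed, and DESeq2 (0.0232% lower) called 0 of the 10, with 0 at an unadjusted p under 0.05. For each of the 5 genes the Advanced area nearer to Early differed from it by less than the 2 Advanced areas differed from each other.

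Ccl7 had 1.69 per 10000 on Early, 0.447 on Advanced 1 and 1.15 on Advanced 2 (log2 difference -1.15, SE 0.19, adjusted p = 3.26e-07, edgeR). Both Advanced areas were below Early, and Advanced 2 had 2.58 times the level of Advanced 1. Ccl8 had 12.5, 5.61 and 9.99 (log2 difference -0.76, SE 0.14, adjusted p = 2.4e-05), and Ccl2 had 1.49, 0.619 and 1.35 (-0.68, SE 0.19, adjusted p = 0.0323, edgeR). For Ccl7, Ccl8 and Ccl2, Advanced 2 lay closer to Early than to Advanced 1. Ccl12, a further monocyte attractant of the same cluster that is not among the 10, stood at 4.17 on Early, 0.506 on Advanced 1 and 2.64 on Advanced 2 (log2 difference -1.48, SE 0.17, adjusted p = 4.3e-15, edgeR). Here too Advanced 2 lay closer to Early than to Advanced 1, and the fit gave the gap between the Advanced areas no weight. No result with a spread that may differ by gene, or from DESeq2, is given for Ccl12.

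Cxcl10 had 0.983 on Early, 0.340 on Advanced 1 and 0.678 on Advanced 2 (log2 difference -1.02, SE 0.21, adjusted p = 0.000251, edgeR). Without the 5 richest spots of each area the levels were 0.605, 0.277 and 0.458, in the same order. Cxcl1 had 0.398, 0.269 and 0.134 (log2 difference -1.05, SE 0.27, adjusted p = 0.0142, edgeR), and here Advanced 2 was the lower of the Advanced areas, the opposite order to Cxcl10, Ccl7, Ccl8 and Ccl2. Ccl5, at 2.86 on Early, 3.28 on Advanced 1 and 5.50 on Advanced 2, missed the threshold (log2 difference 0.54, SE 0.17, adjusted p = 0.0909, edgeR). Cxcl9, Ccl4, Ccl6 and Ccl9 had adjusted p of at least 0.903 and log2 differences between -0.10 and 0.27.

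In the same fit 5 of 9 neutrophil markers were higher in Advanced, among them Camp (log2 difference 2.40) and S100a9 (0.86), and the other 4 did not pass, with Mmp9 at -0.68 and Csf3r at -0.27, with list sums of 4.81 (Early), 11.4 (Advanced 1) and 6.18 (Advanced 2), no gene of the list being at 0 on any area. Of the macrophage markers 0 of 10 passed in either direction (median log2 difference -0.34, sums 42.4, 30.9 and 40.0), so that the order of the areas in these sums was that of Ccl8. Of the fat markers 3 of 6 were higher in Advanced, Retn (1.91), Fabp4 (0.90) and Lpl (0.74), with sums of 4.82 (Early), 7.53 (Advanced 1) and 11.4 (Advanced 2) and none at 0. The 6 monocyte markers were split, with 1 called higher and 1, Fn1 (-1.21), called lower (median log2 difference -0.35). Of the 6 fibroblast markers Col3a1 (-0.77) was lower and none higher. The part of these lists in the chemokine results was not tested.

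Against WT, which shares the Advanced areas with the preceding comparison, 0.765% of genes passed in edgeR as higher in Advanced and 1.42% as lower. Ccl6, Ccl7, Ccl8 and Ccl9 passed as lower and no chemokine as higher (median log2 difference of the 10 -0.53, of all genes 0.01). With the spread free to differ by gene (1.34% lower), and in DESeq2 (0.328% lower of the 7918 genes left by its own filter), the calls were Ccl6 and Ccl9 alone. The WT patch weighed heavily here: without its 5 spots, a choice made after the data were seen, 0.937% of genes passed as lower and 0.565% as higher, and the chemokines called were Ccl6, Ccl8 and Ccl9 as lower and Cxcl10 and Ccl2 as higher. Ccl6, Ccl9 and Cxcl10 remained among the calls with the freer spread (0.89% of genes lower). DESeq2 then called 0 of the 10 (0.17% of 7657 genes lower), with 3 at an unadjusted p under 0.05.

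Ccl6 had 2.18 per 10000 on WT and 0.459 and 0.510 on the Advanced areas (log2 difference -2.28, SE 0.20, adjusted p = 2.16e-26, edgeR), which differed from each other far less than from WT. Without the patch WT stood at 0.861 and the difference was -0.91 (SE 0.24, adjusted p = 0.0117, edgeR). Ccl9 had 1.95 on WT and 0.343 and 0.369 on the Advanced areas (log2 difference -2.57, SE 0.21, adjusted p = 1.3e-30, edgeR), and without the patch WT stood at 0.879 and the difference was -1.38 (SE 0.24, adjusted p = 3.42e-06, edgeR). The 5 spots were chosen for their Ccl6 and left out of WT only, so a smaller difference was fixed by that choice. With the 5 richest spots of every area left out, Ccl6 stood at 0.861 on WT, 0.386 on Advanced 1 and 0.437 on Advanced 2, and Ccl9 at 0.879, 0.286 and 0.309, without a test.

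Ccl8 had 25.5 on WT and 5.61 and 9.99 on the Advanced areas, a log2 difference of -1.82 (SE 0.14, adjusted p = 1.71e-36, edgeR) that was -1.53 (SE 0.14, adjusted p = 5.66e-26) without the patch. The gap from WT to the nearer Advanced area, 1.35 on the log2 scale, was larger than that between the Advanced areas, 0.83. Ccl7 had 1.92 on WT and 0.447 and 1.15 on the Advanced areas (log2 difference -1.37, SE 0.19, adjusted p = 3.92e-10, edgeR), and without the patch WT stood at 0.929, between the 2 Advanced areas, with a difference of -0.29 (SE 0.22, adjusted p = 0.765, edgeR). Its call against WT was thus lost without the 5 spots. They were left out of WT only, which fixed the direction of this shift. With the 5 richest spots of every area left out, Ccl7 stood at 0.929 on WT, 0.385 on Advanced 1 and 1.08 on Advanced 2, without a test.

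Cxcl10 and Ccl2 were called against WT only when the patch was left out. Cxcl10 stood at 0.321 on WT, 0.340 on Advanced 1 and 0.678 on Advanced 2 (log2 difference 0.55, SE 0.27, adjusted p = 0.417, edgeR) and passed as higher in Advanced once the patch was left out, with WT at 0.212 (1.18, SE 0.30, adjusted p = 0.00923, edgeR). Ccl2 stood at 0.890 on WT, between 0.619 on Advanced 1 and 1.35 on Advanced 2 (log2 difference 0.03, SE 0.21, adjusted p = 0.981, edgeR), and at 0.524 without the patch (0.83, SE 0.24, adjusted p = 0.0323, edgeR). The spots were left out of WT only, which fixed the direction of both shifts. Without the patch Ccl2 was not called with the freer spread or in DESeq2. With the 5 richest spots of every area left out, Cxcl10 stood at 0.148 on WT, 0.277 on Advanced 1 and 0.458 on Advanced 2, without a test. Ccl2 then stood at 0.488, 0.555 and 1.24. Ccl5, Cxcl1, Cxcl9 and Ccl4 did not pass with or without the patch. In the same fit 7 of 10 macrophage markers were lower in Advanced than in WT (6 of 10 without the patch), with a median log2 difference of -1.04, sums of 59.4 on WT against 30.9 and 40.0, and none of the 10 at 0 on any area. Also lower were 3 of 6 mast cell markers and 2 of 6 each of the T cell, fibroblast and monocyte markers (3, 3, 2 and 0 without the patch). The part of these lists in the lower Ccl6, Ccl8 and Ccl9 was not tested.

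Within the rim alone, 0.107% of the 12162 genes tested differed between Advanced and Early in either direction in edgeR, and 0 of the 10 chemokines passed. Among these, Ccl7 (log2 difference -1.18, unadjusted p = 0.000845 in edgeR, adjusted p = 0.285), Cxcl10, Ccl8, Cxcl1 and Ccl2 had an unadjusted p under 0.05, as had 557 of the 12162 genes. Against WT, 0.559% of rim genes were lower in Advanced, and Ccl6 (-2.32), Ccl7 (-1.81), Ccl8 (-2.0) and Ccl9 (-2.75) passed. Without the patch (0.362% lower) Ccl8 (-1.73, adjusted p = 0.00316, edgeR) and Ccl9 (-1.58, adjusted p = 0.0281, edgeR) passed. The lower rim level of Ccl8 on the Advanced areas, 6.16 and 9.28 against 29.0 on WT, thus held outside the patch as well.

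Within the interior, 0.181% of the 11079 genes tested were lower in Advanced than in Early in edgeR, and Ccl7 (log2 difference -1.34, SE 0.27, adjusted p = 0.000431) and Cxcl1 (-1.44, SE 0.35, adjusted p = 0.0169) passed. Cxcl1 stood at 0.660 in the Early interior, 0.278 in that of Advanced 1 and 0.203 in that of Advanced 2, a gap wider than that between the Advanced areas, whereas interior Ccl7 was 2.81 (Early), 0.460 (Advanced 1) and 1.83 (Advanced 2). As over all spots, this fit gave a gene's own difference between the Advanced areas no weight. For Ccl7 that difference was 1.99 on the log2 scale, against 0.62 from Early to the nearer Advanced area. Against WT, 0.226% of interior genes were lower in Advanced, and Ccl6 (-2.0) and Ccl9 (-1.98) passed, neither of them without the patch (adjusted p = 0.375 and 0.736, edgeR). Interior Ccl8, in contrast with the rim, stood at 12.4 on WT against 5.11 and 11.3 (log2 difference -0.67, SE 0.31, adjusted p = 0.621, edgeR).

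Whether the interior-to-rim difference itself changed with the group was tested as an interaction. Between Advanced and Early 0% of genes passed in edgeR, with 425 of 12933 at an unadjusted p under 0.05, and between Advanced and WT 0.00773% passed, with 948 at an unadjusted p under 0.05. None of the 10 chemokines passed. Ccl8 came closest, with an interior-to-rim log2 difference that was 1.26 higher in Advanced than in WT (SE 0.27, unadjusted p = 0.000146, adjusted p = 0.172, edgeR). For Ccl5 the corresponding values were 0.17 against WT and 0.68 against Early (adjusted p = 0.937 and 1, edgeR).

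The tissue on an area falls into connected pieces, which the labels tie to no node or mouse, and levels varied between them without a test. On the Early area, with 4 pieces, Ccl8 ranged from 1.00 to 22.8 per 10000, Ccl7 from 0.231 to 3.71, Ccl2 from 0.253 to 2.80 and Cxcl10 from 0.0771 to 1.18. The piece with the highest Ccl8 was also that with the highest Ccl2, Ccl6, Ccl7, Ccl9, Cxcl1, Cxcl9 and Cxcl10, and Marco ran from 2.97 to 34.3 over the same pieces. The range of Ccl8 within Early thus exceeded the difference between the Early and Advanced areas. The 2 pieces of Advanced 2 had Ccl8 at 7.67 and 16.7, and WT and Advanced 1 each formed 1 piece.

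The genes whose levels over spots were most like those of each chemokine were listed by mean Pearson r of ln(1 + UMIs per 10000) over the 4 areas, among spots with at least 1000 UMIs (273 on WT, 601 on Early, 579 on Advanced 1 and 604 on Advanced 2). These spots share libraries and depth, and the values are descriptions. Ccl8 was most like Marco (mean r 0.58, 0.41 to 0.68), Selenop, which encodes a selenium carrier protein (0.56, 0.44 to 0.68), and Cd209b, a lectin of marginal and sinus macrophages (0.55, 0.41 to 0.65). Ccl7 was most like Ccl12 (0.36, 0.13 to 0.57), Marco (0.32) and Cd209b (0.28). For the other members the best mean r was between 0.12 and 0.25, low values from which little can be read in counts this sparse. It was with Ighg1 for Ccl2, Ccl12 for Cxcl10, Cacnb3 for Ccl5, Cd5l for Ccl6, Marco for Ccl9, Saa3 for Cxcl1 and Myl9 for Cxcl9. Among the chemokines themselves, the pairs with the highest mean r were Ccl7 with Ccl8 (0.32, 0.17 to 0.52) and Ccl2 with Ccl7 (0.28, 0.13 to 0.46), and Ccl6 with Ccl9 reached 0.46 on WT and -0.02 to 0.10 elsewhere.

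Of 8 receptors of these chemokines 5 could be tested. Cxcr2, the receptor of Cxcl1 on neutrophils, was lower in the interior (log2 difference -0.82, SE 0.21, adjusted p = 0.0168, edgeR), and Ccr2, the receptor of Ccl2, was lower in Advanced than in WT (-1.0, SE 0.23, adjusted p = 0.00156, edgeR). No other tested receptor passed in either comparison, and none in Advanced against Early. The 8 summed to 1.54 per 10000 on WT, 1.07 on Early, 1.24 on Advanced 1 and 1.17 on Advanced 2. None of the 5 tested scavenging receptors, which bind chemokines without signalling in the usual way, passed in any of the 3 comparisons in edgeR. Their summed levels, 0.514 to 0.574 per 10000, spanned a narrow range.

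Of the other inflammatory chemokines 10 of 17 could be tested. In the interior Ccl22 (log2 difference 0.92) and Cxcl5 (0.86) were higher and Ccl20 (-1.70) and Pf4 (-0.98) lower. Advanced was lower than Early in 2 of the 10, Ccl20 (-1.86, SE 0.21, adjusted p = 1.88e-15, edgeR) and Ccl12, and against WT Ccl12 (-1.16), Ccl17 (-2.46) and Ccl22 (-1.68) were lower and Ccl20 (1.1) higher. The WT patch held 59.0% of the WT Ccl12 UMIs, and outside it WT stood at 1.51, between Advanced 1 and Advanced 2. Without the patch 2 of the 10 passed as lower against WT and 0 as higher in edgeR. Of the 7 homeostatic chemokines tested, Ccl21a of the T cell zone was higher in the interior (0.52) and Cxcl13 of the follicles lower (-1.0). In Advanced against Early, Ccl21a (1.14) and Cxcl12 (0.77) were higher and Cxcl13 (-1.38) lower, and Cxcl13 was higher in Advanced than in WT (1.0).

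Of the pathways that induce these chemokines, few genes passed. None of 11 interferon-gamma response genes passed in any of the 3 comparisons in edgeR, and their summed levels ran from 10.2 on WT to 12.6 on Advanced 2. Of 10 NF-kB response genes, Il1b was higher in the interior (log2 difference 0.56, SE 0.16, adjusted p = 0.0351, edgeR) and lower in Advanced than in WT (-1.03, SE 0.25, adjusted p = 0.00356, edgeR), and no gene of the list passed between Advanced and Early. Without the WT patch 0 of the 10 passed against WT in edgeR. The list summed to 11.1 on WT, 16.8 on Early, 13.1 on Advanced 1 and 15.6 on Advanced 2. Markers of fat, which lies around the nodes, were lower in the interior in 6 of 6 genes (median log2 difference -2.10), and their part in the rim levels of the chemokines was not tested.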

How the data were processed

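Per the labels and the authors' methods, the 4 capture areas were processed with Space Ranger 1.1.0 against mm10 (GRCm38), as named in the submitters' processing notes, which also name Seurat 4.0.3 and R 4.1.1. The deposited values are raw UMI counts of the spots under tissue, with no normalization. Here, UMIs were summed per area and region and tested with edgeR 4.0.16 (quasi-likelihood test, TMM, R 4.3.3) over genes with at least 30 UMIs, with Benjamini-Hochberg adjustment over all of them and a threshold of 0.05. Interior against rim had the area as a block, and the group fits had 4 areas, 3 groups and 1 residual degree of freedom, with Early and WT assumed to vary like Advanced. Spread shared over genes weighed as 21.8 degrees of freedom against 3 residual for interior against rim. For group fits it weighed as 10.4 in the rim and without limit over all spots and in the interior. SEs are the log2 difference over the root of F. The fits were tested on simulated data. DESeq2 1.42.0, other scalings, filters, spot depths, rim widths and left-out areas were alternatives. A spread that differs by gene (edgeR's robust option) and leaving out 5 WT spots were added after seeing the data.

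The 10 genes and all lists were chosen with earlier results of these data known. Named genes were all 10 members, list genes past the interior against rim test with at most 4 examples by size among those with at least 200 UMIs, and the 3 genes most alike per member with at least 300 UMIs. List genes named in other comparisons, Ccl12, Marco and Cd5l were singled out after their values were seen. Pieces had at least 20 spots and 20000 UMIs. Of the 32287 features 40 repeat an earlier symbol, and the first was used. Sequences were read with Biopython 1.88. Figures were drawn with matplotlib 3.10.9.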

Additional observations from a re-analysis of the deposited data

Results flagged for a closer look

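For 6 of the 10 chemokines the ratio of interior to rim was under 1 on WT and over 1 on Early. The share of all genes with such ratios was not worked out, so whether 6 of 10 is unusual is not known. With 1 area each, the difference was not tested, and the counting interval of the ratio left out 1 on both areas for Ccl8 and Ccl9 alone. The log2 of interior over rim was larger on Early than on WT by 1.87 for Cxcl10, 0.44 for Ccl6, 1.49 for Ccl7, 1.64 for Ccl8, 1.38 for Ccl9 and 1.56 for Cxcl1. Without the 5 WT spots rich in Ccl6 the values were 1.5, -0.05, 1.47, 1.80, 1.42 and 1.74, so that the sign was kept for 5 of the 6 and not for Ccl6. These values have no intervals, and the spots were left out of WT only. The WT interior then held 3 UMIs of Cxcl10 and 4 of Cxcl1, too few to place their ratios. It held 25 of Ccl7, 314 of Ccl8 and 21 of Ccl9.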

How the results depend on the processing

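Of the chemokines called between interior and rim, Ccl2 and Ccl5 passed in 13 of 14 alternatives, and Ccl7 in 7. The count was 4 with no filter on low counts (Cxcl9 and Ccl7 added), 0 with no replicate block, that is, without the area term, where 140 genes passed, and 2 to 4 with 1 area left out, 4 of them without WT. Over all genes, 913 passed, against 423 in DESeq2, 554 in spots with at least 500 UMIs, 582 with a rim of 2 rings and 280 to 1077 with 1 area left out, 280 without Advanced 2.

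Between Advanced and Early, 152 genes passed, 7 in DESeq2. The 5 chemokines became 2 with the freer spread and 0 in DESeq2, and the same without the 5 WT spots (7 genes in DESeq2). Between Advanced and WT, 283 genes passed, 36 in DESeq2, and 183 and 23 without the 5 WT spots in the freer spread and DESeq2. The 4 chemokines became 2 with the freer spread, 2 in DESeq2 and 0 in DESeq2 without the 5 WT spots. No paired analysis was possible because the groups share no animals or paired numbers beyond number 1.

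Signs turned for uncalled log2 differences only. Between interior and rim, Ccl6 was 0.0443 without the 5 WT spots, Ccl9 was -0.45 without the area term, and Cxcl10 was 0.12 with a rim of 2 rings. With 1 area left out Ccl6 ran from -0.24 to 0.0175 (0.00823 without WT), Ccl8 from -0.47 to 0.0604 (without WT) and Ccl9 from -0.17 (without Early) to 0.37. Cxcl9 in Advanced against Early was 0.0325 by library size alone and 0.0305 in spots with at least 500 UMIs, and Cxcl1 in Advanced against WT was 0.13 (0.12 in DESeq2) without the 5 WT spots. Scaling by library size alone raised the median of all genes to 0.09 for interior against rim, 0.09 against Early and 0.13 against WT, and the calls split into 701 higher and 316 lower (411 and 502 in the reported fit), 90 and 48 (69 and 83), and 171 and 133 (99 and 184). Against Early, Ccl2 then missed the threshold and Ccl5 passed as higher, and Ccl2 also missed it in spots with at least 500 UMIs.

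With 1 Advanced area left out no residual degree of freedom is left, and the log2 difference from Early was -1.35 and -0.21 for Ccl2 without Advanced 2 and without Advanced 1, -2.0 and -0.61 for Ccl7, -1.24 and -0.39 for Ccl8, -1.61 and -0.59 for Cxcl10, and -0.65 and -1.62 for Cxcl1. Interior spots held few UMIs, 5 to 9 per area for Ccl4, which left wide intervals.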
